A study of Rattus norvegicus with 6 samples.

Results

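The genes described here are 10 central genes of endoplasmic reticulum (ER) stress and the unfolded protein response (UPR), and they were taken by symbol from the 17648 genes of the deposited expression matrix. All 10 were listed, namely HSPA5, HSP90B1, CALR, EIF2AK3, ATF4, DDIT3, ERN1, XBP1, ATF6 and HERPUD1. The matrix came from RNA sequencing of cultured neurons from the spinal cord of neonatal Sprague-Dawley rats, with 3 libraries of the Glu + siR-Con group (control small interfering RNA, siRNA) and 3 of the Glu + siR-GAL3 group (siRNA against galectin-3, GAL3, listed as LGALS3). By the design text, both groups were exposed to 10 μM glutamate for 1 h after 3 days of culture and kept for a further 16 h without it, so that there is no library without injury. The treatment label of the siR-Con libraries gives saline instead, which is 0 μM glutamate, and under that label the groups would differ in glutamate as well as in siRNA. The source names of the same libraries begin with Glu, as do those of the siR-GAL3 libraries. The treatment labels call the siR-GAL3 group a GAL3 knockout, although an siRNA lowers a transcript without altering the gene. The cells had been enriched by density centrifugation and treated with Ara-C, which limits dividing cells. The paper names 1 siRNA against GAL3, for the injections into rats, and does not say which or how many went into the cultures. The labels do not say whether the 3 libraries of a group came from separate cultures, so every p-value measures only the spread between these libraries.

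The ER is where secreted and membrane proteins are folded. When unfolded proteins collect there, sensors in its membrane start the UPR. PERK (gene EIF2AK3) phosphorylates eIF2α, which slows translation in general but favours ATF4, a transcription factor that in turn drives DDIT3 (CHOP). IRE1 (gene ERN1) splices XBP1 mRNA into the form that encodes an active transcription factor. ATF6 is cut in the Golgi and its released part enters the nucleus. The products of these branches raise the lumen chaperones BiP (HSPA5), GRP94 (HSP90B1) and calreticulin (CALR), and HERPUD1, which serves ER-associated degradation. In neurons the response is known from excitotoxic and traumatic injury. Much of it is a change of protein activity or of splicing, and a gene-level expression value does not distinguish spliced from unspliced XBP1 mRNA.

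Promoter stretches of 5 members are shown first, because they hold sequence elements that are known from genes answering ER stress. The windows came from RefSeq (assembly GRCr8) and ran from 250 bases before to 50 bases after an annotated start. Of the 10 members, 8 had a window, and ERN1 and ATF6 had none. The ER stress response element (ERSE), searched on both strands as CCAAT and CCACG with any 9 bases between them, was found in the windows of 4 of the 8 members, while 0.0657% of all 33469 windows held it. A second form, ERSE-II, searched on both strands as ATTGG and CCACG with any 1 base between them, was found in the window of HERPUD1 and in 0.0508% of all windows. The HERPUD1 window also held TTGCATCA, a form of the composite site that ATF4 is known to use with C/EBP proteins, which 0.795% of all windows held. In the stretches below, written 5′ to 3′ along the gene, capitals mark these elements. The names are followed by the position in GRCr8 and the strand.
HSPA5, chr3:38452953-38453011, plus strand: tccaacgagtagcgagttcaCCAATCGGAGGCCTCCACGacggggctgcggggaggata
HSP90B1, chr7:23012327-23012489, minus strand: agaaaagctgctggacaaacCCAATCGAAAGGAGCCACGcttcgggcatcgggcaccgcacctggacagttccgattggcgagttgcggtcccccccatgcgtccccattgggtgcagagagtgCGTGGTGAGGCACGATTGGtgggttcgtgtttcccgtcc
CALR, chr19:40213117-40213173, plus strand: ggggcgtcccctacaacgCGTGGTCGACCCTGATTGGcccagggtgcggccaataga
XBP1, chr14:84604538-84604596, plus strand: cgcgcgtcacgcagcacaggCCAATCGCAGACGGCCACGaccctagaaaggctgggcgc
HERPUD1, chr19:10614801-10614911, minus strand: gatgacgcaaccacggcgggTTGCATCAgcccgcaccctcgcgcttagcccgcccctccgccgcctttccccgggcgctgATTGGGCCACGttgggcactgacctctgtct
The ERSE of HSPA5 began 43 bases and that of XBP1 65 bases before the start. HSP90B1 had one in each orientation, beginning 176 and 72 bases before the start, and that of CALR lay in reverse orientation, beginning 232 bases before it. The windows of HERPUD1 and EIF2AK3 lay at a start inside the annotated span of the gene. The windows of EIF2AK3, ATF4 and DDIT3 held none of the 3 elements in these letters. The CCAAT box alone, which both ERSE forms include, was found in 7 of the 8 windows and in 37.5% of all windows. These are matches of letters, and no binding was measured.

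The values were linear expression values that the authors derived from FPKM (a read count scaled by transcript length and library size) and then corrected for batches and for differences within groups, so the depth of the libraries is unknown and the SDs are those left after that correction. Column totals lay between 64313 and 64714. No member had a value below 0 or the same value in any 2 libraries. Exactly equal values of other genes divided the libraries into 3 sets. Replicates 1 of both groups formed one set, siR-Con replicates 2 and 3 with siR-GAL3 replicate 3 another, and siR-GAL3 replicate 2 stood alone. A fit blocked by library set therefore takes the siRNA difference from the other libraries only, and is no separate check beside a fit without siR-GAL3 replicate 2. Values below are given in the order of replicates 1, 2 and 3. LGALS3, the target of the siRNA, was 77.4, 54.4 and 62.4 in siR-Con against -1.64, 32.3 and 18.5 in siR-GAL3. It was lower in every siR-GAL3 library, and least so in replicate 2. For tests, values below 0 were set to 0 and limma was fitted with an intensity trend to log2(value + 1) of the 8495 genes whose mean was 1 or more, a scale that understates the fold change of low genes. Of the members, 9 were tested and ERN1 was below the minimum. On this scale LGALS3 had a log2 fold change of -2.91 (standard error 1.20, limma adjusted p = 0.571).

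Defining markers were checked against the labelled cell type. RBFOX3 (NeuN) had values between 0.30 and 0.43 and SLC17A6, a glutamate transporter of synaptic vesicles, between 0.0474 and 0.0818 in all 6 libraries, and only 3 of 10 neuron markers had a mean of at least 1. These 3 were MAP2, from 13.1 to 19.0, TUBB3, from 4.03 to 5.19, and SYT1, from 1.56 to 2.39, so neuronal transcripts were present. The astrocyte marker GFAP lay between 514.8 and 757.7 and the myelin gene MBP between 628.6 and 918.5. The values of the members are therefore those of a culture with abundant glial transcripts. In such bulk samples, fewer cells of a type and less RNA per cell cannot be told apart. Between the groups, the summed level of the 10 microglia markers was 50.8 to 61.6 in siR-Con and 62.4 to 75.8 in siR-GAL3, with all 9 markers tested higher and 4 of them at an unadjusted p under 0.05 in limma. The summed level of the 8 astrocyte markers was 869.8 to 1012 in siR-Con and 751.7 to 813.2 in siR-GAL3, with 6 of 8 lower and 3 of them at an unadjusted p under 0.05. This sum was mostly GFAP, with means of 655 in siR-Con and 524 in siR-GAL3, while SLC1A3 and GJA1 had log2 fold changes of 0.06 and 0.02. The 5 fibroblast markers listed summed to 43.0 to 50.6 in siR-Con and 33.0 to 38.1 in siR-GAL3, with 4 of 5 lower, 3 of them at an unadjusted p under 0.05, and a median log2 fold change of -0.42. The 9 neuron markers listed summed to 24.5 to 28.7 and 22.5 to 27.9. The sum of the 8 oligodendrocyte lineage markers was 881.3 to 939.8 in siR-Con and 875.8 to 1174 in siR-GAL3, and that of the 3 endothelial markers listed was 0.989 to 1.16 and 1.03 to 1.12. The part of these shifts in the values of the ER stress genes was not tested.

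**Figure D1:**
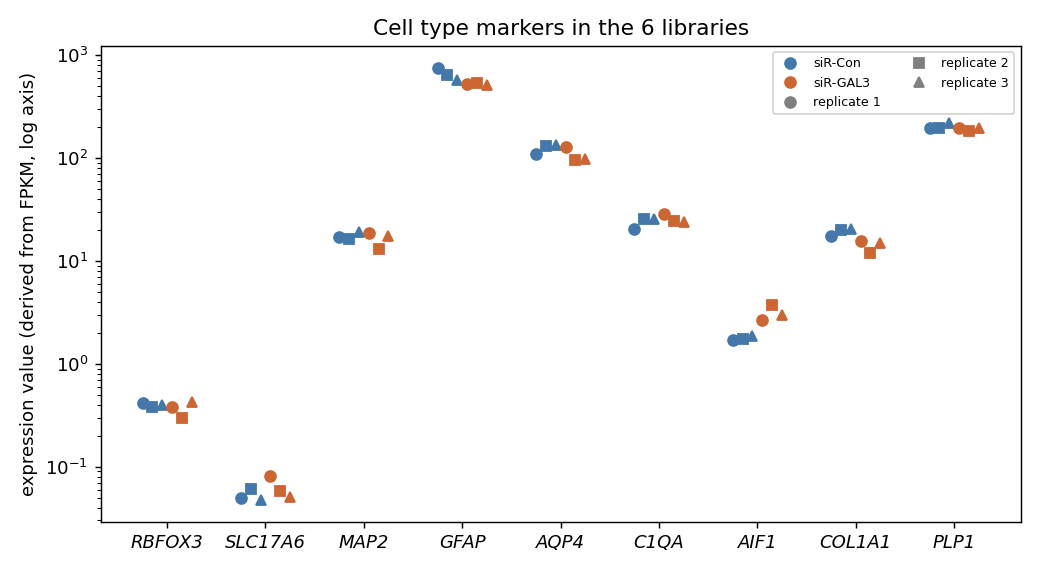
Expression values of 9 cell type markers (log axis) in the 6 libraries, with siR-Con in blue, siR-GAL3 in orange and a symbol for each replicate number. RBFOX3 and SLC17A6 lie below 1 in all libraries, and MAP2 lies between 13.1 and 19.0. GFAP is at least 514.8, and AIF1 is higher in each siR-GAL3 library than in each siR-Con library.

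The group means of the members differed by -20.5% (ATF6) to 38.9% (DDIT3), siR-GAL3 against siR-Con. No member had a Benjamini-Hochberg adjusted p under 0.05 in limma, where 0% of all genes tested did, and the smallest adjusted p of a member was 0.571. An unadjusted p under 0.05 was found for 2 of the 9 members, DDIT3 and HERPUD1, both higher in siR-GAL3. Among all genes tested, 8.66% had such a p, 4.41% higher and 4.25% lower in siR-GAL3. The median log2 fold change of the 9 members was 0.07, with 6 higher and 3 lower, against a median of -0.0000119 over all genes tested, whose quartiles were -0.10 and 0.10. Of all genes tested, 4247 were higher and 4248 lower in siR-GAL3. The groups did not overlap for 2 of the 10 members, HERPUD1 higher and EIF2AK3 lower in siR-GAL3, and for 20.5% of all genes tested, 10.3% in each direction. No member had an unadjusted p under 0.05 together with a log2 fold change over 1 in size, which 0.318% of all genes tested had.

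Levels were compared between genes on the deposited scale. It was derived from values per transcript length, and whether the later corrections by the authors kept genes comparable is unknown. CALR was the highest member, with values between 59.8 and 68.2 over the 6 libraries. HSPA5, from 31.8 to 42.0, and HSP90B1, from 33.7 to 37.7, followed and overlapped with each other. Below the chaperones came the transcription factors ATF4, from 12.4 to 16.6, and XBP1, from 8.77 to 10.6, which overlapped neither with each other nor with the chaperones. ATF6, DDIT3 and HERPUD1 overlapped at values between 1.39 and 3.93, and the sensors EIF2AK3, from 1.24 to 1.41, and ERN1, from 0.654 to 0.844, were lowest.

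**Figure D2:**
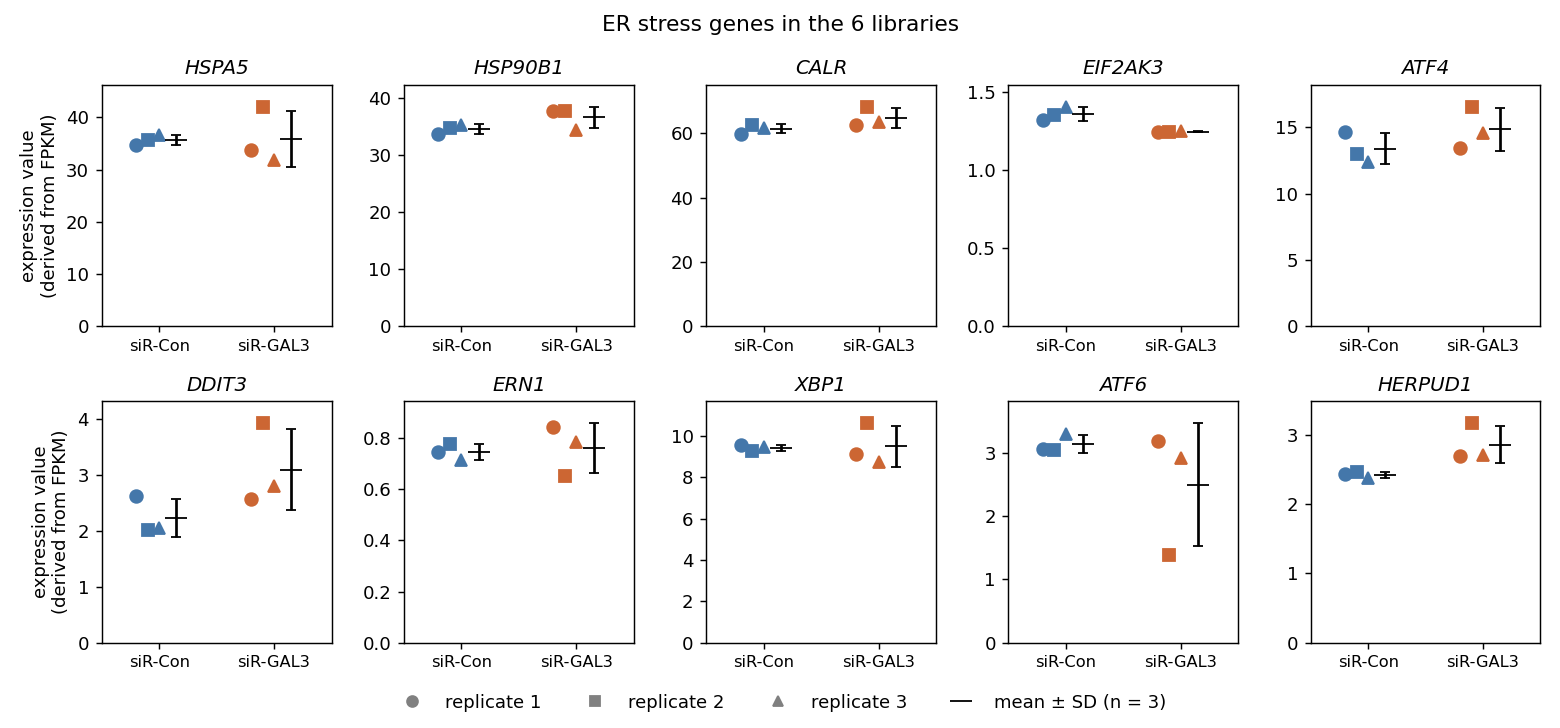
Expression values of the 10 members (linear axis from 0) in each library, with a symbol for each replicate number and the mean ± SD of each group (n = 3). In siR-GAL3, replicate 2 is the highest of all libraries for 7 members and the lowest for the other 3, and the groups are separate for EIF2AK3 and HERPUD1 only.

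Among the chaperones, HSPA5 encodes BiP, which holds the sensors inactive and binds unfolded chains. Its values were 34.7, 35.7 and 36.6 in siR-Con against 33.8, 42.0 and 31.8 in siR-GAL3. In siR-GAL3, replicate 2 lay above all other libraries and the other replicates lay below all siR-Con libraries, so that the group means of 35.7 ± 0.961 and 35.9 ± 5.41 (SD, n = 3 each) were alike over libraries that were not. The log2 fold change was -0.00142 (standard error 0.11, limma adjusted p = 0.996). Without siR-GAL3 replicate 2 it was -0.12 (standard error 0.05, adjusted p = 0.346), in a fit where 1.97% of all genes tested had an adjusted p under 0.05. Within the library sets, the difference of siR-GAL3 from siR-Con was -2.50% in the first and -12.1% in the second.

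HSP90B1 encodes GRP94, the ER member of the HSP90 family, which folds integrins and Toll-like receptors. Its values were 33.7, 34.7 and 35.3 in siR-Con against 37.7, 37.7 and 34.5 in siR-GAL3. In siR-GAL3, replicates 1 and 2 were above every siR-Con library and replicate 3 lay among them, so the groups overlapped. GRP94 mRNA had a log2 fold change of 0.08 (standard error 0.07, limma adjusted p = 0.642). CALR encodes calreticulin, a lectin chaperone of glycoproteins that also stores calcium. Its values were 59.8, 62.6 and 61.8 in siR-Con against 62.5, 68.2 and 63.5 in siR-GAL3. The groups overlapped only through siR-Con replicate 2, which lay just above siR-GAL3 replicate 1, and within both library sets CALR was higher in siR-GAL3, by 4.47% and 2.04%. Its log2 fold change was 0.07 (standard error 0.07, limma adjusted p = 0.651). The 3 chaperones together summed to 131.7 ± 3.02 in siR-Con and 137.2 ± 9.53 in siR-GAL3 (SD, n = 3 each), a difference of 4.21% that was within the spread of the siR-GAL3 libraries.

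In the PERK branch, EIF2AK3 encodes the kinase itself. It was 1.32, 1.35 and 1.41 in siR-Con against 1.25, 1.24 and 1.25 in siR-GAL3. No value of siR-GAL3 reached the lowest of siR-Con (two-sided p = 0.1 in an exact permutation test, the minimum for 3 against 3), with group means of 1.36 ± 0.0443 and 1.25 ± 0.00425 (SD, n = 3 each), a difference of -8.24%. EIF2AK3 was the only member with a smaller SD in siR-GAL3 on the log2 scale, while 81.6% of all genes tested had a larger SD in that group. It was also lower in siR-GAL3 within both library sets, as were 23% of all genes tested. Its log2 fold change was -0.07 (standard error 0.05, limma adjusted p = 0.626), and with each library left out in turn it stayed between -0.08 and -0.06.

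ATF4 encodes the transcription factor that eIF2α phosphorylation favours at translation. It was 14.7, 13.0 and 12.4 in siR-Con against 13.4, 16.6 and 14.6 in siR-GAL3. The groups overlapped, since siR-Con replicate 1 was above all siR-GAL3 libraries other than replicate 2. For ATF4 the log2 fold change was 0.14 (standard error 0.10, limma adjusted p = 0.621). The difference of siR-GAL3 from siR-Con was -8.69% within the first library set and 14.5% within the second. DDIT3 encodes CHOP, a factor linked to cell death under lasting ER stress. It was 2.62, 2.02 and 2.06 in siR-Con against 2.57, 3.93 and 2.80 in siR-GAL3. As for ATF4, the highest value was that of siR-GAL3 replicate 2 and siR-Con replicate 1 was the highest of its group, so the groups overlapped. DDIT3 had the largest fold change of the 9 members tested, 0.33 on the log2 scale (standard error 0.14, limma unadjusted p = 0.0461, adjusted p = 0.571). Its mean was 2.23 ± 0.335 in siR-Con and 3.10 ± 0.726 in siR-GAL3 (SD, n = 3 each), 38.9% higher. The difference rested in part on siR-GAL3 replicate 2, without which the log2 fold change was 0.19 (limma unadjusted p = 0.0514, adjusted p = 0.307), and the difference was -1.86% within the first library set and 37.5% within the second. Among all genes tested, 16.3% had an unadjusted p under 0.05 without that library.

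In the IRE1 branch, ERN1 was 0.747, 0.778 and 0.716 in siR-Con against 0.844, 0.654 and 0.785 in siR-GAL3. Its lowest and its highest value were both in siR-GAL3, and its means of 0.747 ± 0.0312 and 0.761 ± 0.0975 (SD, n = 3 each) differed by less than the spread (exact permutation test, two-sided p = 0.8). XBP1, whose mRNA IRE1 splices, was 9.58, 9.27 and 9.46 in siR-Con against 9.13, 10.6 and 8.77 in siR-GAL3. Like HSPA5, it was highest in siR-GAL3 replicate 2 and lower in the other siR-GAL3 libraries than in any siR-Con library. The log2 fold change was 0.01 (standard error 0.08, limma adjusted p = 0.982) over all libraries and -0.07 (standard error 0.05, adjusted p = 0.525) without siR-GAL3 replicate 2. Within the library sets XBP1 differed by -4.73% and -6.39%.

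ATF6 encodes the sensor that is itself the precursor of a transcription factor. It was 3.07, 3.05 and 3.31 in siR-Con against 3.19, 1.39 and 2.92 in siR-GAL3. Only siR-GAL3 replicate 2 stood apart, below the level of every other library, while the other 5 libraries lay between 2.92 and 3.31. ATF6 had a log2 fold change of -0.29 (standard error 0.20, limma adjusted p = 0.619) and -0.03 (standard error 0.06, adjusted p = 0.833) without that library.

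HERPUD1, an ER membrane protein that brings substrates to the degradation machinery, was 2.43, 2.46 and 2.37 in siR-Con against 2.70, 3.16 and 2.70 in siR-GAL3. No value of siR-Con reached the lowest of siR-GAL3 (two-sided p = 0.1 in an exact permutation test). The means were 2.42 ± 0.0421 and 2.85 ± 0.267 (SD, n = 3 each), 17.9% higher in siR-GAL3. The log2 fold change was 0.17 (standard error 0.07, limma unadjusted p = 0.0497, adjusted p = 0.574). HERPUD1 was higher by 11.2% and 11.8% within the library sets, where 20.7% of all genes tested were higher in both, and its log2 fold change without siR-GAL3 replicate 2 was 0.11 (unadjusted p = 0.0394, adjusted p = 0.279). When any other single library was left out, its unadjusted p-value from limma lay between 0.0544 and 0.134. It was 0.0762 (limma adjusted p = 0.415) when blocked by library set, 0.106 (adjusted p = 0.695) when blocked by replicate number, and 0.0512 (adjusted p = 0.546) after quantile normalization.

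**Figure D3:**
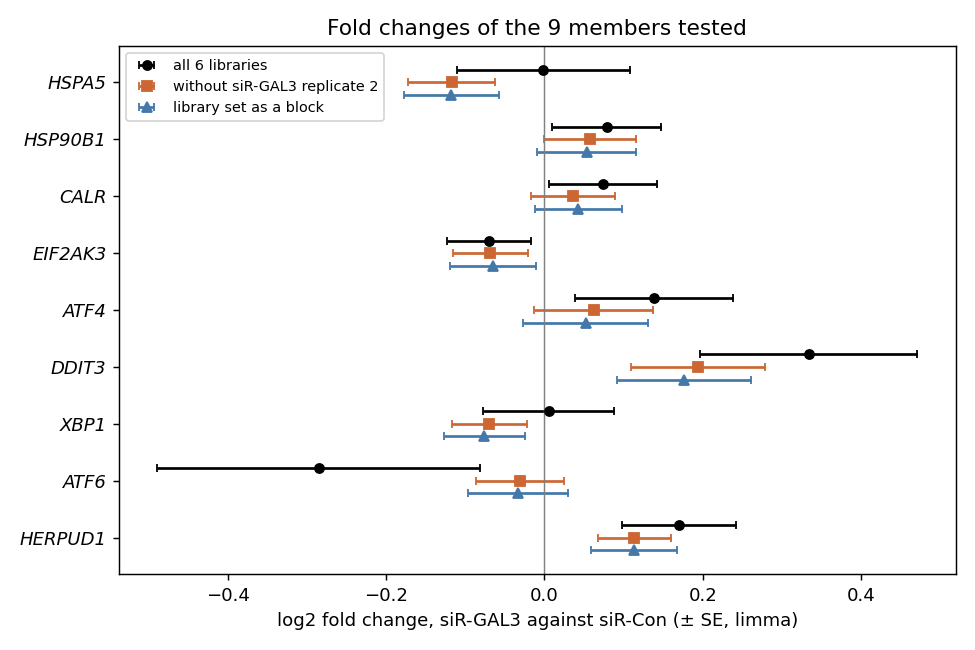
Log2 fold changes of the 9 members tested, siR-GAL3 against siR-Con, with standard errors from limma, over all 6 libraries (black circles), without siR-GAL3 replicate 2 (orange squares) and blocked by library set (blue triangles). HSP90B1, CALR, ATF4, DDIT3 and HERPUD1 lie above 0 and HSPA5, EIF2AK3 and ATF6 below 0 in all 3 fits, XBP1 changes sign, HSPA5 moves from -0.00142 to -0.12 and ATF6 from -0.29 to -0.03. The blocked fit and the fit without siR-GAL3 replicate 2 take the siRNA difference from the same libraries.

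In siR-GAL3 replicate 2, 7 of the 10 members had their highest value (HSPA5, HSP90B1, CALR, XBP1, ATF4, DDIT3 and HERPUD1) and 3 their lowest (EIF2AK3, ERN1 and ATF6). The lowest 3 are the membrane sensors of the UPR and the highest 7 are their targets and effectors, a grouping made after the values were seen. For EIF2AK3 the siR-GAL3 libraries lay close together, at 1.248, 1.243 and 1.252. For HSP90B1, siR-GAL3 replicates 1 and 2 were 37.66 and 37.71, so the ranks of both genes rest on near ties. ERN1 was below the minimum for testing. The library siR-GAL3 replicate 2 stood apart for other genes as well, since 41.5% of all genes tested had their highest and 35.1% their lowest value there. It is alone in its library set, so library set and siRNA cannot be told apart for it. Within both other sets, 3 members were higher in siR-GAL3 (CALR, ERN1 and HERPUD1), 3 were lower (HSPA5, XBP1 and EIF2AK3), and for the other 4 the direction differed between the sets. Among all genes tested, 20.7% were higher and 23% lower in siR-GAL3 within both of these sets, so the counts of members are near those shares.

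Genes that share the promoter elements were described next. The ERSE was found in the windows of 21 gene symbols, 4 of them members and 5 of them in the wider lists below. Of the 14 that could be tested, 9 were higher and 5 lower in siR-GAL3, and the median of their log2 fold changes was 0.04. The ERSE carriers from the wider lists had log2 fold changes of 0.25 for CRELD2, 0.12 for DNAJC3, 0.01 for ERO1B and -0.05 for CANX, each with an adjusted p of at least 0.587 in limma. Of the 14 ERSE carriers tested, 2 had an unadjusted p under 0.05, as had 8.66% of all genes tested, namely BIRC5 with a log2 fold change of 0.47 and PPM1L with -0.16, and neither is a member of the lists. ERSE-II was found for 17 symbols, of which 8 were tested, 6 of them higher, with a median of 0.11. Besides HERPUD1, this group held the lumen chaperone genes DNAJB11 and HYOU1, with log2 fold changes of 0.08 and -0.02. The composite site of ATF4 was found for 227 symbols, of which 41 were tested, 26 of them higher and 15 lower, with a median of 0.05. Of these 41, 5 had an unadjusted p under 0.05, 4 higher and 1 lower, with HERPUD1 and CHAC1 among the higher ones. Among all genes tested, 4.41% were higher and 4.25% lower in siR-GAL3 at such a p.

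The wider pathway was described with 7 lists that held 117 genes besides the members, of which 102 could be tested. Of these 102, 68 were higher and 34 lower in siR-GAL3, against 4247 higher and 4248 lower among all 8495 genes tested. The median of the 102 on the log2 scale was 0.06. The highest value lay in siR-GAL3 replicate 2 for 50 of them, or 49.0%, against 41.5% of all genes tested. Without that library the median was 0.03. Of them, 8 genes, 4 in each direction, had an unadjusted p under 0.05, or 7.84% against 8.66% of all genes tested. None had an adjusted p under 0.05 in limma.

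**Figure D4:**
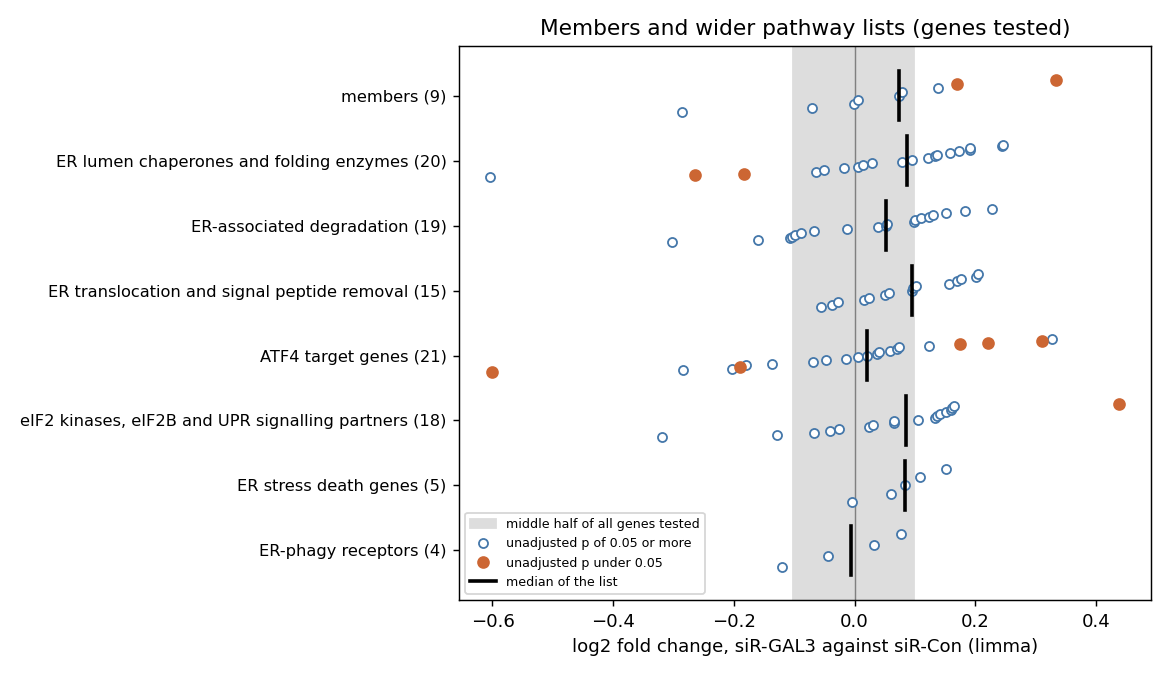
Log2 fold changes, siR-GAL3 against siR-Con, of the members and of the genes in 7 wider lists, with the number tested in brackets, filled circles for an unadjusted p under 0.05 in limma and a bar at the median of each list. The grey band runs between the quartiles of all genes tested, -0.10 and 0.10, and the medians of all lists lie within it.

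Among the 20 chaperones and folding enzymes of the ER lumen, all were tested and 14 were higher, with a median log2 fold change of 0.09. An unadjusted p under 0.05 was reached by 2 genes, both lower, or 10% of the list, which is near the 8.66% of all genes tested. TXNDC5, a protein disulfide isomerase, was 6.91, 7.17 and 6.84 in siR-Con against 5.56, 5.87 and 5.47 in siR-GAL3. No siR-GAL3 library reached the level of a siR-Con library, and the log2 fold change was -0.26 (standard error 0.06, limma unadjusted p = 0.00404, adjusted p = 0.267). Without siR-GAL3 replicate 2 its adjusted p was 0.0295, and in the fit blocked by library set, where 1.25% of all genes tested had an adjusted p under 0.05, it was 0.0717. DNAJC10, a reductase that breaks disulfide bonds before degradation, had means of 5.94 ± 0.0559 and 5.12 ± 0.216 (SD, n = 3 each) without overlap, and its log2 fold change was -0.18 (adjusted p = 0.504). DNAJC3, an inhibitor of the eIF2α kinases with an ERSE in its promoter, had means of 7.28 ± 0.330 and 8.01 ± 0.12 (SD, n = 3 each) and a log2 fold change of 0.12 (adjusted p = 0.587).

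In ER-associated degradation, 19 of 20 genes were tested, 11 higher and 8 lower, with a median of 0.05 and none at an unadjusted p under 0.05. The 3 with the smallest p were SELENOS, VCP and ERLEC1. SELENOS, a partner of the retrotranslocation complex, had a log2 fold change of 0.23, VCP, the ATPase that extracts substrates, -0.16, and ERLEC1, a lectin of that machinery, 0.15, with adjusted p-values between 0.577 and 0.585 in limma. The groups did not overlap for these 3 and 1 further gene of the 19, 3 higher and 1 lower, a share near the 20.5% of all genes tested. Of the 16 genes of translocation into the ER and signal peptide removal, 15 were tested and 12 were higher, with a median of 0.10 over all libraries and 0.02 without siR-GAL3 replicate 2. Its leading genes SPCS1, SEC62 and SPCS2 had log2 fold changes of 0.20, 0.20 and 0.18. In siR-GAL3 replicate 2, 10 of the 15 genes were highest, or 66.7%, against 41.5% of all genes tested.

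The targets of ATF4 held the largest number of genes at an unadjusted p under 0.05, 5 of the 21 tested, or 23.8% against 8.66% of all genes tested, and they went in both directions, 3 higher and 2 lower. CHAC1, which degrades glutathione, was 1.01, 0.649 and 0.717 in siR-Con against 1.13, 1.20 and 1.32 in siR-GAL3, with a difference of 0.31 on the log2 scale (standard error 0.09, limma adjusted p = 0.363). The groups did not overlap, although siR-Con replicate 1 came close to siR-GAL3 replicate 1. CEBPG, a partner of ATF4, had a log2 fold change of 0.22 (adjusted p = 0.389) and MTHFD2, a mitochondrial folate enzyme, of 0.17 (adjusted p = 0.574). The lower genes were SLC7A11, the cystine/glutamate exchanger, and PSAT1, an enzyme of serine synthesis. SLC7A11 was 3.20, 4.64 and 5.11 in siR-Con against 2.98, 2.81 and 1.73 in siR-GAL3. All siR-GAL3 libraries were below all siR-Con libraries, with the smallest distance within the first library set. Its log2 fold change of -0.60 (standard error 0.19, limma adjusted p = 0.458) was larger in size than that of any member. PSAT1 had means of 14.4 ± 0.201 and 12.5 ± 0.325 (SD, n = 3 each) and a log2 fold change of -0.19 (adjusted p = 0.474). In siR-GAL3 the summed astrocyte markers, mostly GFAP, were lower too, as given above, and their part in the values of SLC7A11 and PSAT1 was not tested. The median over the list was 0.02, and TRIB3, a target of ATF4 and CHOP, had a mean of 0.264 and was not tested.

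Among the eIF2 kinases, eIF2B subunits and partners of the sensors, 18 of 20 genes were tested and 13 were higher, with a median of 0.09. EIF2AK2, which encodes the double-stranded RNA kinase PKR and is itself induced by interferon, was the only one at an unadjusted p under 0.05. It was 3.36, 2.83 and 2.57 in siR-Con against 5.83, 3.51 and 3.82 in siR-GAL3. The groups did not overlap, and siR-GAL3 replicate 1 was highest. The log2 fold change was 0.44 (standard error 0.17, limma unadjusted p = 0.0332, adjusted p = 0.535). Blocked by library set, it was 0.50 (limma adjusted p = 0.0446). In that fit, 1.25% of all genes tested passed 0.05 after adjustment. Leaving out siR-GAL3 replicate 2, which draws on the same libraries, gave 0.55 (limma adjusted p = 0.112). Leaving out siR-GAL3 replicate 1 instead gave 0.25. The summed microglia markers were highest in that library too, at 75.8, and their part in the value of EIF2AK2 was not tested. Of the other kinases that act on eIF2α, EIF2AK3 was lower as given above, EIF2AK1 had a log2 fold change of 0.07 and EIF2AK4 was below the minimum. EIF2B3 and EIF2S1, the latter encoding eIF2α, had log2 fold changes of 0.16 each.

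Of 10 genes linked to death under ER stress, 5 were tested and none had an unadjusted p under 0.05. BCAP31, BCL2L11 and BAX had log2 fold changes of 0.11, 0.08 and 0.15, with adjusted p-values from 0.611 to 0.663 in limma. CASP12, the caspase named for this response in rodents, had a mean of 0.330 and was not tested. Of 6 receptors for autophagy of the ER, 4 were tested, 2 higher and 2 lower, with a median of -0.00654, and the log2 fold changes of CCPG1, ATL3 and RTN3 were 0.08, -0.12 and -0.04.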

How the data were processed

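Per the paper, the authors aligned reads with STAR, counted them per gene with HTSeq, converted them to FPKM, and had batch effects removed, values standardized and differences within groups corrected, with tools for these last steps and the genome build not given in the sources used here. The deposited values were used as a score on a linear expression scale, not as FPKM, because 3.86% of them are below 0. Every column carried the name of 1 sample. Samples were grouped by the treatment label as siR-Con or siR-GAL3 transfection. Values below 0 were set to 0, and log2(value + 1) was taken for the 8495 genes whose mean over the 6 libraries was 1 or more, and fitted with limma 3.58.1 in R 4.3.3 (intensity trend, group as the only term, Benjamini-Hochberg adjustment over all genes tested). The fit was run on simulated data with independent noise and equal spread in both groups. In the libraries themselves, 81.6% of genes tested had a larger SD in siR-GAL3, so that run does not show how the fit performs on them. Exact permutation tests used SciPy 1.17.1 in Python 3.11.15. Library sets are libraries that share over 800 exactly equal values other than 0 (1312 to 1463 within a set, 238 to 264 between sets).

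The members and lists were chosen with earlier results of these data known, and the promoter elements were searched after the values were seen, so no list was tested as a set. The genes named are LGALS3, the members, and in each wider list the 3 with the smallest p and any with an unadjusted p under 0.05 and a log2 fold change over 1 in size, of which there was no example. CRELD2, ERO1B, CANX, DNAJB11, HYOU1, BIRC5, PPM1L, PSAT1, MTHFD2, EIF2AK1, EIF2AK4, TRIB3 and CASP12 were named besides, after their values were seen. So were RBFOX3, SLC17A6, MAP2, TUBB3, SYT1, GFAP, SLC1A3, GJA1, MBP, AIF1, CX3CR1, P2RY12, CSF1R, TREM2 and C1QA from the cell type marker lists. As alternatives, the pseudocount was set to 0.1, the filter was dropped or raised to 5, libraries were scaled by median ratios or by quantile normalization, the intensity trend or the log transformation was left out, the replicate number or the library set was added as a block, and single libraries were left out. Symbols matched RefSeq (GRCr8) for all 10 members, and protein sequences were not used here.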

Additional observations from a re-analysis of the deposited data

How the results depend on the processing

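No member had an adjusted p under 0.05 in limma under any alternative run, and the median log2 fold change of the members stayed between 0.04 and 0.09 when single libraries were left out. The number of members at an unadjusted p under 0.05, 2 with all libraries, was less stable. It was 1 without a filter, 1 after quantile normalization, 1 without log transformation, 0 with a mean of at least 5, where 5 members were tested and neither DDIT3 nor HERPUD1 was among them, 0 when blocked by library set, 0 with the replicate block, and 0 to 1 with each library left out. DDIT3 was above the threshold without siR-Con replicate 2 or 3 or siR-GAL3 replicate 2 or 3, and HERPUD1 without any one library other than siR-GAL3 replicate 2, and both stayed higher in siR-GAL3 in each fit that tested them. HSPA5 and XBP1, whose fold changes were close to 0, changed sign. HSPA5 ranged from -0.117 to 0.078 with each library left out and was above 0 without siR-Con replicate 3 (0.017), siR-GAL3 replicate 1 (0.035) or siR-GAL3 replicate 3 (0.078). XBP1 ranged from -0.0695 to 0.0555 with each library left out, being below 0 without siR-Con replicate 2 (-0.00646) or siR-GAL3 replicate 2 (-0.0695), and was -0.000665 after quantile normalization and -0.076 when blocked by library set. The number of wider pathway genes at an unadjusted p under 0.05, 8 with all libraries, was 12 when blocked by library set. It was 3 with a mean of at least 5, where only 55 of them were tested, and 5 with the replicate block. Among all genes tested, such a p was found for 1174 of 8495, 260 of 2600 and 543 of 8495 in these fits. With each library left out, the number of wider pathway genes was 2 to 14, with 2 without siR-Con replicate 2, 3 without siR-Con replicate 3 and 14 without siR-GAL3 replicate 2. In these last 3 fits, each with 1 library left out, the number among all 8495 genes tested, 736 with all libraries, moved in the same direction, to 350, 344 and 1388. Libraries with the same replicate number did not deviate together (correlations of -0.17, -0.07 and 0.04 over the genes tested), so the numbers were not taken to pair the samples. The cause of these shifts was not tested. With 3 libraries a group, unknown depth and a correction within groups by the authors, changes of the size seen in most members could not be separated from the spread.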
